A study of Mus musculus with 16 samples.

Results

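The 4 libraries of sensory neurons from the nodose and jugular ganglion complex (NG/JG), out of 16 in the series, were set against the 12 libraries from the somatosensory ganglia. These were the trigeminal ganglion (TG), the lumbar L3-L5 dorsal root ganglia (DRG) and the thoracolumbar T10-L1 DRG, with 4 libraries each. The members were chosen by their labelled source, and the 3 other ganglia were given equal weight, so that no ganglion counted for more than another. The question was what sets vagal neurons apart from all the other ganglia at once. All 16 libraries were labelled as Pirt-positive neurons of male C57BL/6J mice. Per the study's methods the mice were adult and naive and carried Pirt-cre and a Rosa26-LSL-tdTomato reporter. Ganglia of both sides were dissociated, bright red cells were sorted in repeated cycles, and the neurons of a ganglion were sequenced in bulk after SMART-seq2 with oligo dT priming. The Pirt promoter drives the Cre, so neurons that never used it were not collected. Sorting gave the fewest neurons from NG/JG and the most from TG. The study's results state that roughly equal numbers went into sequencing, but its methods give a wide range of neurons per library that depended on the ganglion. Whether the input was balanced is therefore not known. Nothing in the sources says how many animals were pooled or that the libraries of a ganglion came from different animals. P-values therefore measure the spread between libraries, which may be technical.

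The vagus nerve carries signals from heart, lung and gut, and its sensory cell bodies lie in this fused complex. Nodose neurons arise from an epibranchial placode and innervate viscera, whereas jugular neurons, like those of the DRG, arise largely from the neural crest. The TG and DRG serve skin, muscle and deep tissue. The tissue is labelled as nodose ganglion and the source as NG-JG. The shares of nodose and jugular neurons in a library are therefore not known. In bulk libraries, fewer cells of a type and less RNA per cell cannot be told apart.

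The NG/JG libraries held 7187906 to 9675318 reads on genes, with a median of 8011414, against 4735624 to 13333318 in the other 12. A level is given in CPM, the count of a gene relative to the library's reads on genes after TMM scaling. Taken as the floor of a library, 3 reads were worth 0.310 to 0.417 CPM in NG/JG before that scaling. At the depth of the smallest library the NG/JG libraries had 9213 to 12713 genes with at least 1 read, with a mean of 11172 ± 1525 (SD, n = 4), against 14527 ± 1823 (SD, n = 12) in the others. The difference, NG/JG minus the others, was -3355 genes (two-sided exact permutation test over libraries, p = 0.00385). Among genes with at least 100 reads in some library of a ganglion, 29.9% had no read at all in another NG/JG library. The same share was 3.44% in T10-L1 DRG, 5.89% in L3-L5 DRG and 6.83% in TG. The median SD of log2 CPM within a ganglion was 2.26 in NG/JG and 0.65 to 1.16 in the others. The edgeR test below estimated 1 spread per gene over all 16 libraries. Its SEs and p-values therefore do not carry the wider spread of NG/JG alone, and may be too small where the NG/JG libraries differ widely. On the first principal component, which held 27.8% of the variance, NG/JG 4 lay furthest out and TG 1 lay apart from the other TG libraries. All 16 libraries had 1279 to 8362 reads on Xist and 0 reads on 13 genes of the Y chromosome, which goes against the label male. The 14 genes of sensory neuron identity were all read in NG/JG, with a summed level of 1842 to 5635 CPM against 1263 to 13295 CPM in the other libraries, and 0 of them passed the test in either direction. Their log2 fold changes were positive in 5 and negative in 9. At an unadjusted edgeR p under 0.05, 3 were lower (Rbfox3, Avil and Scn10a) and 1 higher (Snap25), against 11.4% and 5.72% of all genes tested. Pirt itself, the reporter's driver, was at 22.6 to 284 CPM in NG/JG and at 17.7 to 274 CPM in the others (log2 fold change -0.01, SE 0.67, edgeR adjusted p = 0.999).

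**Figure D1:**
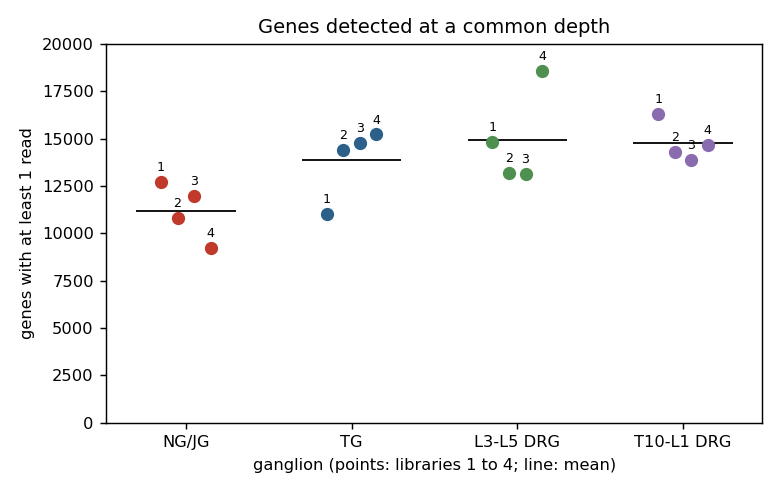
Genes with at least 1 read after thinning every library to the smallest total, by ganglion. Points are libraries, numbered as labelled, lines are means, and the vertical axis starts at 0. The NG/JG libraries lie between 9213 and 12713 genes, and only TG 1 among the other 12 falls within that range.

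Of 14236 genes tested, 35 (0.246%) were higher and 83 (0.583%) lower in NG/JG than in the mean of the 3 other ganglia (edgeR quasi-likelihood test, adjusted p under 0.05). The shares of 0.246% and 0.583% are the background for the calls in the gene lists below. The median log2 fold change over all genes tested was -0.07. The genes called higher had a median of 2.64 and those called lower of -7.51, on the log2 scale. With the study's further limits of more than 5 RPKM (CPM before TMM scaling, per kilobase of exon) and more than 5-fold, 19 were higher (0.133%) and 50 lower (0.351%). In 9 of the 35 (0.0632% of genes tested) every NG/JG library lay above all 12 others, and in 61 of the 83 (0.428%) every NG/JG library lay below. Among all genes tested, called or not, 41 (0.288%) lay above and 165 (1.16%) below in this way. Of the 83 lower genes, 64 had at most 3 reads in every NG/JG library and 73 had at least 1 read in every other library. A fitted fold change of a gene without reads in a ganglion depends on the prior count, so it is no bound. For 28 genes without a read in NG/JG and in a further ganglion, the contrast could not be tested. They are still counted as tested, here and in the gene lists. All 28 had an unadjusted edgeR p over 0.5, so none of them could be called.

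The number of calls moved with single libraries. Leaving out NG/JG 1, NG/JG 3 or TG 1 gave 103, 69 and 139 genes higher and 436, 191 and 270 lower. Leaving out NG/JG 4 gave 23 higher and 55 lower. Of the other libraries, leaving out T10-L1 DRG 2, T10-L1 DRG 4, TG 4 or L3-L5 DRG 1 brought the higher genes to 19 to 22, and leaving out these or TG 3 brought the lower genes to 39 to 53.

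Of the 35 higher genes, 28 also passed against TG, where 126 genes (0.885%) were higher in all. Only 8 of the 35 passed against L3-L5 DRG, where 9 (0.0632%) were higher in all, and 3 against T10-L1 DRG, where 3 (0.0211%) were and 54 (0.379%) passed in either direction. Of the 83 lower genes, 78 passed against TG (358 genes lower in all, 2.51%), 61 against L3-L5 DRG (74, 0.520%) and 49 against T10-L1 DRG (51, 0.358%), and 43 passed against all of them (0.302%), as did 1 higher gene (0.00702%). These contrasts share the 4 NG/JG libraries.

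**Figure D2:**
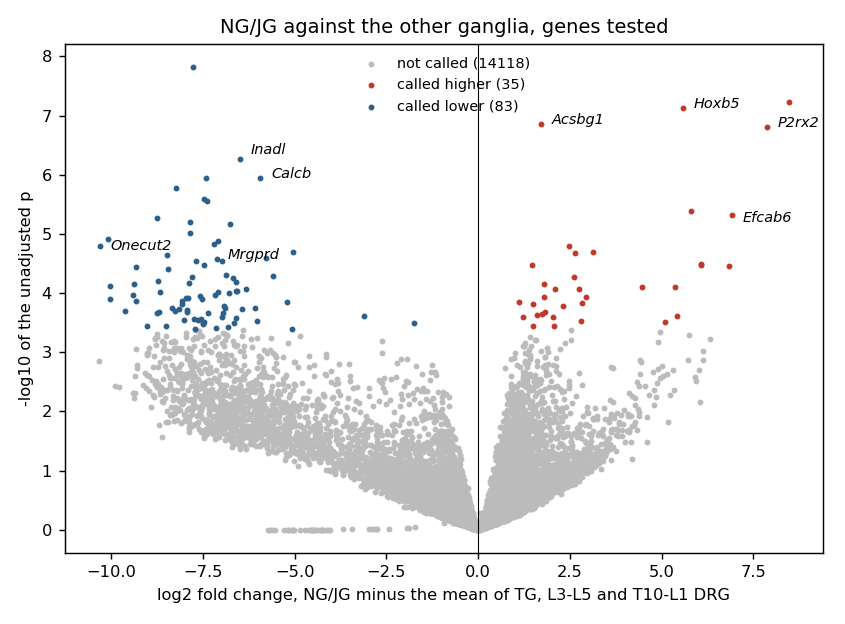
Each point is 1 of the 14236 genes tested, with the log2 fold change of NG/JG minus the mean of the 3 other ganglia on the horizontal axis and -log10 of the unadjusted p on the vertical axis. Red points are the 35 genes called higher and blue points the 83 called lower, whose median log2 fold change is -7.51.

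The homeobox gene Hoxb5 was higher in every vagal library than in any other. Hox genes encode the homeodomain factors that record the position of a cell along the body axis, and Hoxb5 lies at chr11:96163909-96167434 on the plus strand (NCBIM37). It was at 41.2, 96.7, 220 and 142 CPM in NG/JG 1 to 4, and in the other 12 libraries it ranged from 0 over a median of 3.84 to 33.5 CPM. All 4 NG/JG libraries were above all others. TG libraries were at 0 to 0.256 CPM, T10-L1 DRG at 2.34 to 14.1 and L3-L5 DRG at 3.19 to 33.5. The log2 fold change was 5.59 (SE 0.64, edgeR adjusted p = 0.000354), and it passed in all 16 fits that left out a library (adjusted p at most 0.00363). Against TG the difference passed (adjusted p = 0.00155), but against T10-L1 DRG (adjusted p = 0.0525) and L3-L5 DRG (adjusted p = 0.116) it did not.

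Its neighbour Hoxb6, at chr11:96153790-96162883, was also above all others in NG/JG. NG/JG libraries were at 20.1, 26.5, 14.1 and 24.6 CPM against 0 to 9.01 CPM in the others, with a median of 2.45 (log2 fold change 4.45, SE 0.88, edgeR adjusted p = 0.0225). The groups did not overlap. Against T10-L1 DRG alone the log2 difference was 1.90 (adjusted p = 0.632), and 3 of the TG libraries had no read. It was lost without T10-L1 DRG 2 or T10-L1 DRG 4 (adjusted p of up to 0.0510). Hoxb4, at chr11:96177998-96182952, was at 11.6, 10.2, 13.9 and 0 CPM in NG/JG and at no more than 6.35 CPM elsewhere, and did not pass (log2 fold change 4.34, adjusted p = 0.1004).

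Anterior and posterior Hox genes were listed apart. Of the paralogs 1 to 5, 12 of 15 could be tested, 1 was called higher and 0 lower, and their summed level was 92.9 to 271 CPM in NG/JG against 6.90 to 16.9 CPM in TG and 37.4 to 96.7 CPM in the DRG libraries. Hoxb5 alone made up 41.2, 96.7, 220 and 142 CPM of the NG/JG sums of 92.9, 115, 271 and 154 CPM. Of the 12 tested, 6 had a positive and 6 a negative log2 fold change, and Hoxa5, Hoxd1, Hoxd3 and Hoxd4 were lower at an unadjusted p under 0.05. Of the paralogs 6 to 13, 12 of 24 were tested, 1 (Hoxb6) was called higher and 0 lower, 16 had no read in any NG/JG library, and the median log2 fold change was -4.26, or -2.45 with genes at the floor set to their bound. Unadjusted edgeR p was 0.997 for Hoxa9 and 0.991 for Hoxd8, at log2 fold changes of -4.58 and -3.43. Hoxc5, of the paralogs 1 to 5, was at -5.30 with a p of 0.9997. Contrasts that could not be tested gave p-values of this kind, and for those no call was possible. Hoxa7 was at 2.65 CPM in NG/JG 1 and at 0 to 0.129 CPM in the other NG/JG libraries, against 21.1 to 38.0 CPM in the DRG and 0 to 0.256 CPM in TG. The contrast with the mean of the 3 ganglia did not pass (log2 fold change -2.67, adjusted p = 0.261). Without NG/JG 1 it did (log2 fold change -5.66, adjusted p = 0.0254). Hoxa10 and Hoxc8 had no read in NG/JG and did not pass either (adjusted p = 0.0677 and 0.109), but without TG 1 Hoxa10 did (adjusted p = 0.0349). The DRG libraries held both, at up to 43.1 CPM for Hoxa10 and 8.17 CPM for Hoxc8.

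Efcab6, which encodes an EF-hand calcium-binding protein, lies at chr15:83697142-83895809 on the minus strand, and NG/JG libraries were again all above the rest. They were at 8.37, 36.8, 88.8 and 95.7 CPM, and the other 12 at 0 to 3.19 CPM with a median of 0.223. The gene was higher by 6.91 on the log2 scale (SE 1.07, edgeR adjusted p = 0.00524), and it passed in all 16 fits that left out a library. Efcab6 passed against TG (adjusted p = 0.0282), but not against L3-L5 DRG (adjusted p = 0.109) or T10-L1 DRG (adjusted p = 0.0822). TG libraries had at most 3 reads. Hpcal4, a neuronal calcium sensor of the visinin-like family, was at 10.5, 39.5, 18.0 and 17.6 CPM in NG/JG and at no more than 6.05 CPM elsewhere. Its log2 fold change was 5.41 (SE 1.19, edgeR adjusted p = 0.0376), and it kept its call in 5 of the 16 fits, with an adjusted p of up to 0.0793. Hpcal4 passed against no single ganglion (adjusted p = 0.0713, 0.464 and 0.145 for TG, L3-L5 DRG and T10-L1 DRG).

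Among receptor genes for fast transmitters, P2rx2 and Chrnb4 were called higher, and each was near 0 in 1 vagal library. P2rx2, the P2X2 subunit of ATP-gated channels, which joins P2X3 in vagal afferents, was at 182, 33.9, 906 and 0.116 CPM in NG/JG 1 to 4. In the other 12 libraries it ranged from 0.0836 to 9.98 CPM, with a median of 0.743 and its higher values in L3-L5 DRG. Thus 3 NG/JG libraries were above all others, and NG/JG 4 held a single read. On the log2 scale it was higher by 7.87 (SE 0.95, edgeR adjusted p = 0.000448), with 5.90 as the smallest value when a library (NG/JG 3) was left out. It passed against TG (adjusted p = 0.0124) and T10-L1 DRG (adjusted p = 0.0187), and against L3-L5 DRG the adjusted p was 0.0755. Chrnb4, the beta 4 subunit of ganglionic nicotinic acetylcholine receptors, was at 0.419, 74.5, 221 and 269 CPM in NG/JG and at 0 to 35.9 CPM in the others. Here NG/JG 1 was the low library, and 2 T10-L1 DRG libraries were at 35.9 and 11.5 CPM (log2 fold change 6.08, SE 1.11, edgeR adjusted p = 0.0143). Chrnb4 passed against TG (adjusted p = 0.0250), but not against L3-L5 DRG (adjusted p = 0.118) or T10-L1 DRG (adjusted p = 0.327). Chrna3, its usual partner, was at 0, 36.8, 286 and 0.116 CPM and did not pass (log2 fold change 5.04, adjusted p = 0.0921). Without NG/JG 1 it did (log2 fold change 5.46, adjusted p = 0.0359). Htr3a, a subunit of the ionotropic serotonin receptor, was at 145, 346, 940 and 629 CPM in NG/JG and at 0.537 to 182 CPM in the others. Only NG/JG 1 fell within that range, and the gene did not pass (log2 fold change 3.68, adjusted p = 0.0820). It passed without NG/JG 1 (adjusted p = 0.0485) or without T10-L1 DRG 3 (adjusted p = 0.0215).

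**Figure D3:**
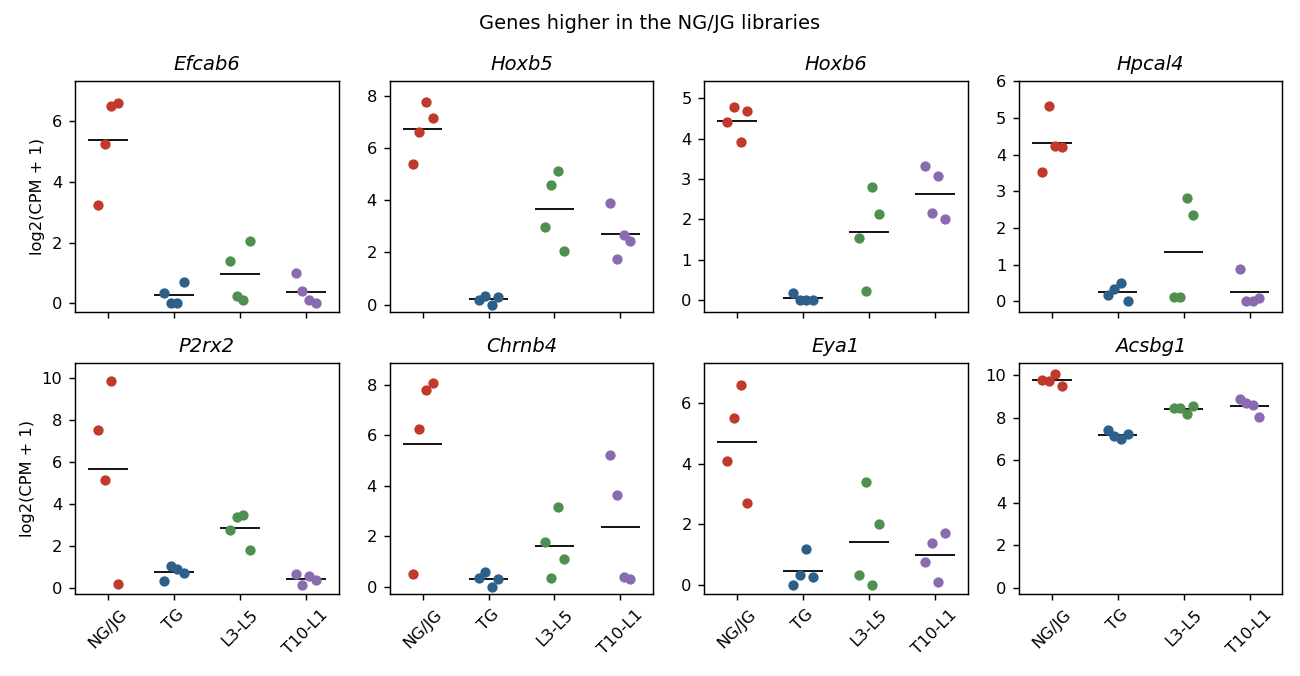
Levels of 8 genes called higher in NG/JG, as log2(CPM + 1), in each library of the 4 ganglia, with lines at the means. Efcab6, Hoxb5, Hoxb6, Hpcal4 and Acsbg1 show no overlap between NG/JG and the other ganglia, while P2rx2 and Chrnb4 each have 1 NG/JG library near 0.

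Eya1, a transcriptional coactivator needed for cranial placodes and their neurons, was at 15.9, 44.4, 96.2 and 5.55 CPM in NG/JG and at 0 to 9.59 CPM elsewhere (log2 fold change 5.09, SE 1.14, edgeR adjusted p = 0.0414). Only NG/JG 4 fell within the range of the others. The call held in 6 of the 16 fits that left out a library, and the adjusted p rose to 0.0841. Eya1 passed against no single ganglion (adjusted p = 0.0667, 0.315 and 0.194 for TG, L3-L5 DRG and T10-L1 DRG). Within the list of placodal and visceral vagal genes, 19 of 30 could be tested, 3 were called higher (Hoxb5, P2rx2 and Efcab6) and 1 lower (Agtr1a), and the median log2 fold change was 1.99 against -0.07 over all genes tested. The list was split, with 11 positive and 8 negative log2 fold changes. At an unadjusted edgeR p under 0.05, 9 were higher and 7 lower (5.72% and 11.4% of all genes tested). Those 7 were Agtr1a, Hoxa5, Sstr2, Trpc5, Olfr78, Calb1 and Kcnv1. Of the 19 tested, 6 had at most 3 reads in every NG/JG library. Hoxb5 and Efcab6 were put on this list because they were known from these libraries, so their calls are not independent of the choice. The gene called lower, Agtr1a, encodes the type 1 angiotensin II receptor, and was at 0 to 0.558 CPM in NG/JG, where TG 1 was as low at 0.134 CPM and the other 11 libraries were at 5.14 to 43.0 CPM (log2 fold change -6.08, SE 1.29, adjusted p = 0.0323). Its call held in 8 of the 16 fits.

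Several known markers of visceral afferents did not pass. Npy2r, the receptor for peptide YY, was at 3.77, 56.4, 62.8 and 0.116 CPM (log2 fold change 4.40, adjusted p = 0.0901), but passed without NG/JG 1 (adjusted p = 0.0464). Cckar, the cholecystokinin receptor of gut afferents, was at 0.419, 40.7, 115 and 0.116 CPM, so that NG/JG 3 alone was above the 0.134 to 41.1 CPM of the others (log2 fold change 2.57, adjusted p = 0.283). In both genes NG/JG 2 and NG/JG 3 were high and NG/JG 4 held 1 read. Gpr65, a proton-sensing receptor, was at 11.2, 0.210, 0.129 and 87.1 CPM, against 0.0888 to 143 CPM in the others (log2 fold change 0.05, adjusted p = 0.996). Glp1r, the receptor for glucagon-like peptide, had no read in NG/JG. Its levels were 0 in 10 of the other libraries as well, with 3.64 CPM in TG 4 and 1.88 CPM in L3-L5 DRG 4. Tbx3 was at 13.3, 83.8, 97.2 and 0.694 CPM (log2 fold change 1.99, adjusted p = 0.193). Ddc, which makes dopamine and serotonin from their precursors, was at 39.6, 0.105, 30.9 and 7.17 CPM and Cgn, a tight-junction protein, at 0, 19.8, 36.2 and 46.7 CPM. Neither passed (log2 fold change 5.72 and 4.77, adjusted p = 0.0751 and 0.0883), but Cgn did without NG/JG 1 (adjusted p = 0.0288). Prlr, the prolactin receptor, and Avpr1a, a vasopressin receptor, were at most at 0.279 and 0 CPM in NG/JG and did not pass (adjusted p = 0.310 and 0.201).

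Acsbg1, an acyl-CoA synthetase that activates long-chain fatty acids, was higher in all vagal libraries and had the smallest SE of the 35 higher genes. NG/JG libraries were at 861, 852, 1046 and 725 CPM. The other 12 were at 127 to 466 CPM with a median of 317, so the groups did not overlap. The difference was 1.71 on the log2 scale (SE 0.20, edgeR adjusted p = 0.000448), and it passed in all 16 fits, against TG (adjusted p = 0.000339) and against L3-L5 DRG (adjusted p = 0.0313). Against T10-L1 DRG the log2 difference was 1.19 (adjusted p = 0.0692). The desaturase genes Scd1 and Fads2, named after their values were seen, were also called higher, by 1.12 and 1.23 on the log2 scale (adjusted p = 0.0283 and 0.0379). Against TG alone the log2 differences were 2.01 and 2.21, and against T10-L1 DRG they were 0.52 and 0.48. They kept their calls in 11 and 3 of the 16 fits. The other genes named by size were Atp8b2, a phospholipid flippase, at 36.1 to 115 CPM in NG/JG against 9.06 to 29.5 CPM, and Ss18, a subunit of a chromatin-remodelling complex, at 142 to 181 CPM against 14.5 to 133 CPM. They were higher by 2.06 (adjusted p = 0.0457) and 1.51 (adjusted p = 0.0452) and kept their calls in 3 and 5 of the 16 fits.

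Some of the higher genes were carried by part of the vagal libraries and were named after their values were seen. F2r, the thrombin receptor PAR1, was at 41.9, 152, 1008 and 7.29 CPM in NG/JG against 0.0756 to 26.7 CPM in the others (log2 fold change 5.36, edgeR adjusted p = 0.0225), and without NG/JG 3 it fell to 3.19 and did not pass. F2r passed against no single ganglion (adjusted p = 0.0668, 0.155 and 0.143 for TG, L3-L5 DRG and T10-L1 DRG). Dcdc2a, a doublecortin-domain gene, was at 15.6, 311, 16.8 and 158 CPM against at most 15.8 CPM in the others (log2 fold change 5.79, adjusted p = 0.00488). Sele, the endothelial adhesion molecule E-selectin, was at 349, 0, 44.1 and 0.231 CPM (log2 fold change 6.84, adjusted p = 0.0144), and without NG/JG 1 it was 4.08 and did not pass. The 12 markers of endothelial cells had a summed level of 133 to 770 CPM in NG/JG and 71.1 to 1915 CPM in the others, and 0 passed. 2410057H14Rik was at 3.91, 14.4, 1.55 and 18.9 CPM in NG/JG and at 0 to 2.31 CPM elsewhere (log2 fold change 6.08, adjusted p = 0.0143), and 14.9% of its exon bases overlap Tspan2 on the opposite strand. Ass1, argininosuccinate synthase, and its copy Gm5424 were called together (log2 fold change 2.81 and 2.83, adjusted p = 0.0406 and 0.0294). Of the 1190 windows of 50 bases in Gm5424, the length of a read, 910 (76.5%) are identical to a window of Ass1, so reads of this pair may have been split between them.

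Calcb, which encodes the calcitonin gene-related peptide CGRP beta, a sensory neuropeptide, was at 0.419, 2.62, 3.88 and 0.694 CPM in NG/JG and at 21.6 to 307 CPM in the other 12 libraries, with a median of 101. All NG/JG libraries were below all others. It fell by 5.94 on the log2 scale (SE 0.83, edgeR adjusted p = 0.00204), and the gene passed against TG, L3-L5 DRG and T10-L1 DRG (log2 fold change -5.61, -6.26 and -5.94, adjusted p = 0.00369, 0.00552 and 0.00616) and in all 16 fits. Calca, which encodes CGRP alpha and calcitonin, was at 59.6, 191, 4.66 and 2.31 CPM in NG/JG and at 228 to 3395 CPM elsewhere. These did not overlap either, but the gene did not pass (log2 fold change -4.15, SE 1.07, adjusted p = 0.0706) except without NG/JG 2 (log2 fold change -5.69, adjusted p = 0.0342). Tac1, which encodes substance P, was at 105, 15.7, 25.1 and 1.85 CPM against 83.4 to 1437 CPM (log2 fold change -3.53, adjusted p = 0.0796), and passed without NG/JG 1 (adjusted p = 0.0199) or TG 1 (adjusted p = 0.0492). Of the 14 neuropeptide genes tested, 0 were called higher and 1, Calcb, lower (0.246% and 0.583% of all genes tested).

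Calca (chr7:121774994-121779871, minus strand) and Calcb (chr7:121862157-121866879, plus strand) are close copies, and the reads were 50 bases long. The 2 coding sequences are shown around the longest stretch that they share letter for letter, which is in capitals and runs for 60 bases. They are bases 187 to 326 of the Calca and 190 to 329 of the Calcb coding sequence in GENCODE vM1, written from the coding strand.
Calca: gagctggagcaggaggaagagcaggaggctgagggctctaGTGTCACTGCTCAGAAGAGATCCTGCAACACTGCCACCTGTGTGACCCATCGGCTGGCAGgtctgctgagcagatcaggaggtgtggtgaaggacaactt
Calcb: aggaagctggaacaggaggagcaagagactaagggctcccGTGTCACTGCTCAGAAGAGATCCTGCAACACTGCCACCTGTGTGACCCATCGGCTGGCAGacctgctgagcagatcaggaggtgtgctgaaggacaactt
Only 11 of the 913 windows of 50 bases in Calcb (1.20%) occur unchanged in Calca. Whether reads of one gene were counted for the other was not tested.

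The receptor of a class of skin afferents and a gene of proprioceptors were close to absent. Mrgprd, a Mas-related receptor of non-peptidergic skin nociceptors, was at 0.698, 0.629, 1.81 and 0.231 CPM in NG/JG (5, 6, 14 and 2 reads). In the other libraries it was at 0.403 CPM in TG 1 and at 21.8 to 723 CPM in the remaining 11. The log2 fold change was -7.13 (SE 1.27, edgeR adjusted p = 0.0135), it passed against each ganglion (adjusted p = 0.0293, 0.0108 and 0.0187 for TG, L3-L5 DRG and T10-L1 DRG) and in all 16 fits. Of the 16 genes tested among itch and Mas-related receptors, 0 were called higher and 1, Mrgprd, lower, with a median log2 fold change of -3.54, or -2.18 with genes at the floor set to their bound. Over all genes tested, 0.246% were called higher and 0.583% lower. Pvalb, the calcium buffer parvalbumin of proprioceptors, had 1 read each in NG/JG 1 and NG/JG 3 and none in NG/JG 2 and NG/JG 4. The others were at 0.418 to 178 CPM, with the highest level in TG 4. The log2 fold change was -7.91 (SE 1.62, edgeR adjusted p = 0.0268). The call held in 12 of the 16 fits, all but those without TG 3, TG 4, NG/JG 2 or NG/JG 4 (adjusted p of up to 0.0664). Pvalb passed against TG (adjusted p = 0.0109), but not against L3-L5 DRG (adjusted p = 0.0720) or T10-L1 DRG (adjusted p = 0.0595). Its mean was 71.4 CPM for TG, against 7.18 CPM for L3-L5 DRG and 12.7 CPM for T10-L1 DRG. The study calls Pvalb a proprioceptor marker, yet reports it as high in TG, where it places no proprioceptors.

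Genes of the crest-derived somatic lineage passed the test in no case. Of 18 tested, 0 were called in either direction, and the median log2 fold change was -0.95, with 6 positive and 12 negative values. At an unadjusted edgeR p under 0.05, 5 were lower (Prdm12, Pou4f3, Prdm8, Fam19a2 and Hs3st2) and 3 higher (Etv1, Cux2 and Htr3a). Over all genes tested these shares were 11.4% and 5.72%. Htr3a is also on the placodal and visceral vagal list. Prdm12, needed for nociceptor development, was at 0.419, 19.0, 4.01 and 0.116 CPM in NG/JG against 1.75 to 193 CPM (log2 fold change -3.03, adjusted p = 0.188). Prrxl1 was at 0.977, 10.9, 8.67 and 0 CPM (log2 fold change -1.14, adjusted p = 0.723). Runx1 was at 40.9 CPM in NG/JG 1 and at 0 to 0.647 CPM in the rest, and without NG/JG 1 its log2 fold change went from -2.11 to -6.94 and passed (adjusted p = 0.0105). NG/JG 2 and NG/JG 3 were the higher ones in both Prdm12 and Prrxl1, as they were in Npy2r and Cckar.

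**Figure D4:**
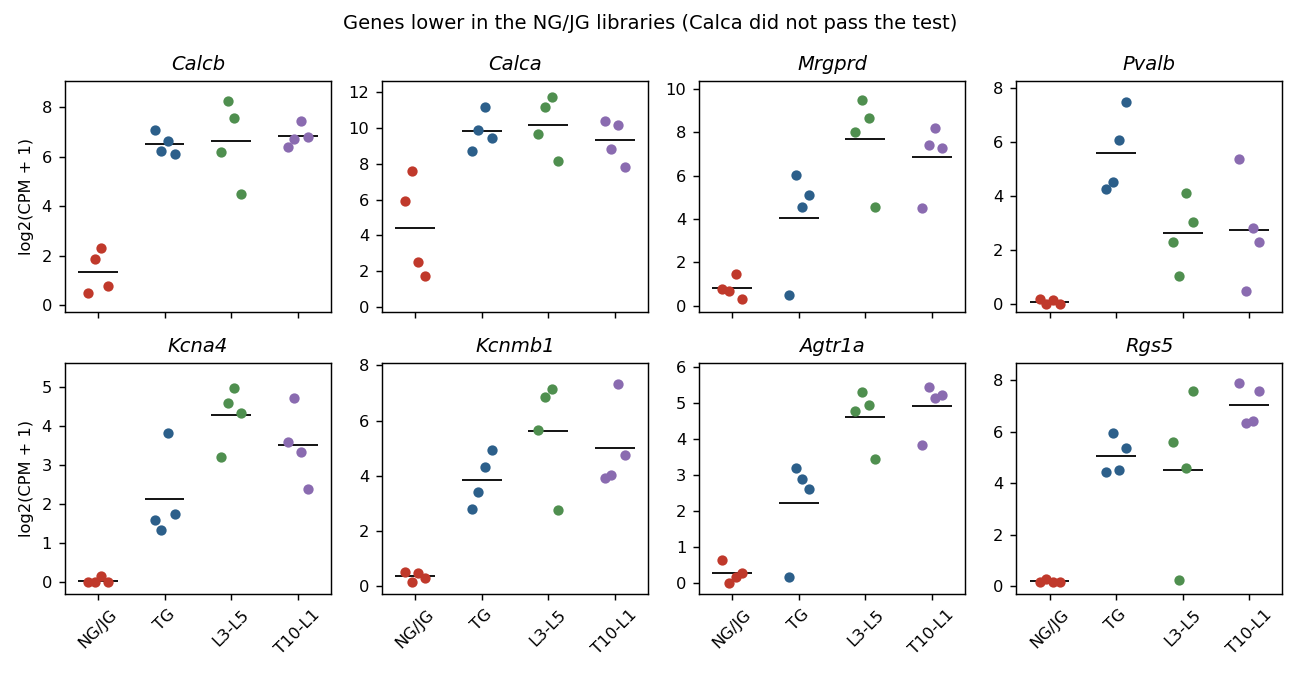
Levels of 8 genes with lower values in NG/JG, as log2(CPM + 1), in each library of the 4 ganglia, with lines at the means. Calca did not pass the test, and the other 7 did. NG/JG libraries lie below all others in Calcb, Calca, Pvalb, Kcna4 and Kcnmb1, whereas Mrgprd and Agtr1a have a low value in TG 1 and Rgs5 in L3-L5 DRG 2.

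Of 70 potassium channel genes tested, 2 were called lower and 0 higher (0.583% and 0.246% of all genes tested). Kcna4, the A-type channel Kv1.4 of small afferents, had 1 read in NG/JG 3 and none in the other NG/JG libraries, against 1.53 to 30.5 CPM elsewhere (log2 fold change -7.88, SE 1.53, edgeR adjusted p = 0.0211). Kcnmb1, the beta 1 subunit of the large-conductance calcium-activated channel, was at 0.105 to 0.419 CPM in NG/JG and at 5.82 to 161 CPM elsewhere (log2 fold change -7.10, SE 1.19, adjusted p = 0.00986). Kcnmb1 is also a gene of smooth muscle. Rgs5, a marker of pericytes, was at 0.116 to 0.210 CPM in NG/JG, while the others were at 20.9 to 237 CPM except L3-L5 DRG 2 at 0.178 CPM (log2 fold change -8.75, SE 1.37, adjusted p = 0.00558). Of the 12 markers of mural cells, Rgs5 was the one called, their median log2 fold change was -4.20 (-3.08 with genes at the floor set to their bound), and their summed level was 128 to 360 CPM in NG/JG and 95.8 to 1703 CPM in the others. Acta2, smooth muscle actin, was at 0 to 0.906 CPM in NG/JG but also at 0.355 to 0.529 CPM in TG 1, L3-L5 DRG 2 and L3-L5 DRG 3, and did not pass (adjusted p = 0.0558). Without any of these 3 libraries it did (adjusted p = 0.0243 to 0.0387). The part of mural cells in the Kcnmb1 difference was not tested. Voltage-gated sodium channels (14 tested), voltage-gated calcium channels (19) and TRP, Piezo and acid-sensing channels (21) had 0 calls in either direction, with median log2 fold changes of 0.47, -0.18 and -0.53. Among 66 axon guidance genes, Efnb3 (ephrin B3) was called lower (log2 fold change -7.51, adjusted p = 0.0428), a call kept in 3 of the 16 fits.

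The 12 lower genes named by size had at most 1 read in any NG/JG library. They were Onecut2, a homeodomain factor, Grwd1, Slc25a45, the glutamate transporter Slc1a2, Ttc23, the interferon regulatory factor Irf5, Tcf19, Ccdc68, Ccdc76, 1700001L05Rik, Zfp775 and 6330406I15Rik, with log2 fold changes from -10.32 to -8.36. Onecut2 had no read in NG/JG and 10 to 357 reads in the other libraries (1.34 to 80.8 CPM). Set against the floor of 3 reads averaged over the NG/JG libraries, it was at least 132-fold lower than the mean of TG, 40.9-fold than L3-L5 DRG and 22.7-fold than T10-L1 DRG. TG 1 was at 1.34 CPM, against an NG/JG floor of 0.367 CPM. For Grwd1 these bounds were 60.7, 43.5 and 28.1, for Slc25a45 17.2, 54.2 and 72.8, and for Slc1a2 15.7, 27.8 and 42.6. Without a library, 6330406I15Rik kept its call in 8 of the 16 fits, Tcf19 in 11 and Ccdc76 in 15 (adjusted p of up to 0.0634), and the other 9 in all 16. A total of 54 lower genes met the rule, and these genes share no role that was examined here. Of the 14236 genes tested, 1199 had at most 3 reads in every NG/JG library, against the 64 of them that were called. Fewer genes were detected in the NG/JG libraries, and the part of this in the lower genes was not tested. Inadl and a beta-globin gene (Beta-s), named after their values were seen, had the smallest adjusted p of the lower genes. Inadl was at 0.231 to 0.837 CPM in NG/JG and 14.6 to 189 CPM elsewhere (log2 fold change -6.50, adjusted p = 0.00130), and Beta-s at 0.231 to 0.977 CPM in NG/JG and 24.0 to 1762 CPM elsewhere (log2 fold change -7.78, adjusted p = 0.000216). The exons of Irf5 overlap Tnpo3 on the opposite strand over 14.2% of their bases, those of Ccdc76 overlap Lrrc39 over 16.3%, and those of 6330406I15Rik overlap Gm20488 over 54.5%, so counts of these genes are uncertain.

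Among interferon response genes 3 were called higher and 1 lower of 22 tested (0.246% and 0.583% of all genes tested), with a median log2 fold change of 1.41. At an unadjusted edgeR p under 0.05, 9 were higher and 2 lower (5.72% and 11.4% of all genes tested). Interferons signal through STAT and IRF factors to genes that carry short response elements near their start. Ifit1, an interferon-induced protein that binds foreign RNA, was at 182, 119, 142 and 540 CPM in NG/JG and at 11.3 to 81.4 CPM in the others, without overlap (log2 fold change 2.60, SE 0.49, edgeR adjusted p = 0.0185). Irgm1, an interferon-inducible GTPase, was at 598, 484, 163 and 1869 CPM against 7.26 to 739 CPM (log2 fold change 3.13, SE 0.55, adjusted p = 0.0118). Irf1, a transcription factor of the pathway, was at 1006, 556, 488 and 1828 CPM against 58.6 to 1080 CPM (log2 fold change 2.09, SE 0.41, adjusted p = 0.0231). In Irgm1 and Irf1 the overlap came from T10-L1 DRG, against which neither passed (log2 difference 1.31 and 0.87, adjusted p = 0.571 and 0.658). Ifit1 passed against TG (adjusted p = 0.0471), but not against L3-L5 DRG (adjusted p = 0.0789) or T10-L1 DRG (adjusted p = 0.130). NG/JG 4 was the highest library in all 3 genes, and without it none of them passed, with log2 fold changes of 1.87 (Ifit1), 2.23 (Irgm1) and 1.59 (Irf1). Isg15 did not pass (log2 fold change 1.46, adjusted p = 0.229). The lower gene was Irf5, a factor of macrophages and other immune cells. The 15 macrophage markers had a summed level of 8439, 427, 63.9 and 1674 CPM in NG/JG and of 203 to 36092 CPM in the others, with 0 calls.

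The promoters of the 3 higher genes are shown because they rose together. These are the 250 bases upstream of the RefSeq start (GRCm38.p6), found at a single place on the chromosome in NCBIM37 and written 5′ to 3′ on the gene's strand. Capitals mark the core of the interferon-stimulated response element (GAAA, any 2 bases, then GAAA, on either strand) or the core of a STAT site (TTCNNNGAA).
Ifit1, chr19:34715129-34715378, plus strand: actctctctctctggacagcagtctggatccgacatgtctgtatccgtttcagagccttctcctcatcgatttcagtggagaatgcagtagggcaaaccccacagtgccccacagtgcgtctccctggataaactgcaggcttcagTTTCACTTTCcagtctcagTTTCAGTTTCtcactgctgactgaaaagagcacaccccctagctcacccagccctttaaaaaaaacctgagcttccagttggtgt
Irgm1, chr11:48684923-48685172, minus strand: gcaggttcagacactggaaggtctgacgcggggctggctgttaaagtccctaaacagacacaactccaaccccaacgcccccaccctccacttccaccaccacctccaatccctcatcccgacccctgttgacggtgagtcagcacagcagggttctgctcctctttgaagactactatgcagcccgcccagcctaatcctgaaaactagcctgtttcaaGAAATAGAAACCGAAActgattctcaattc
Irf1, chr11:53583266-53583515, plus strand: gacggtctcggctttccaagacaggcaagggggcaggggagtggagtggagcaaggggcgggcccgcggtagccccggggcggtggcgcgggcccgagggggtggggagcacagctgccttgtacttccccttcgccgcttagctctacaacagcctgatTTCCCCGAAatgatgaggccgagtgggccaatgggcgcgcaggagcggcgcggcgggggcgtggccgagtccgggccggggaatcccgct
Ifit1 holds 2 matches to the first motif, both on the minus strand, Irgm1 holds 2 that overlap each other, and Irf1 holds 1 match to TTCNNNGAA. A further Irf1 promoter of the table, at chr11:53583725-53583974, holds 0 matches to either motif and is not shown. Over all 32851 promoters of the table, 2.98% hold the first motif and 7.02% the second in the same window. A match is a description of the letters only. Of 23 higher genes named here (Ass1 and Gm5424 were not searched), 15 have a promoter in the table, among which Fosl2 also holds the first and Acsbg1, Dcdc2a and Sele hold TTCNNNGAA.

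All 17 immediate-early genes had a positive log2 fold change, 12 of them at an unadjusted p under 0.05 (815 genes, 5.72% of those tested, were higher at that limit), but 0 passed after adjustment. Their median was 1.10. Fos was at 7206, 13709.9, 6821 and 18451 CPM in NG/JG and at 1070 to 13138 CPM in the others (log2 fold change 0.99, adjusted p = 0.177). Egr1 was at 2814, 5857, 2425 and 10721 CPM against 213 to 5622 CPM (log2 fold change 1.61, adjusted p = 0.0764), and passed without NG/JG 1 (adjusted p = 0.0371) or NG/JG 3 (adjusted p = 0.0435). Outside that list, and named after their values were seen, Fosl2 (log2 fold change 2.74, edgeR adjusted p = 0.0231), Nr4a2 (1.75, 0.0355), Rcan1 (2.49, 0.0105) and Tnfrsf12a (2.31, 0.0314) were called higher. Fosl2 was at 148, 137, 79.0 and 605 CPM against 3.40 to 142 CPM, and without NG/JG 4 its log2 fold change was 1.74 and did not pass, and neither did that of Rcan1 (1.81). Nr4a2 and Tnfrsf12a kept their calls in 5 and 10 of the 16 fits. Against T10-L1 DRG alone none of these 4 passed (log2 differences 1.21 to 1.71, adjusted p at least 0.275). Atf3, the injury-induced factor, was at 951, 2527, 473 and 5698 CPM against 142 to 3432 CPM and did not pass (log2 fold change 1.71, adjusted p = 0.0967), although it did without NG/JG 1, NG/JG 3 or TG 1 (adjusted p = 0.0379 to 0.0493). NG/JG 4 was again the highest library in Fos, Egr1, Fosl2, Rcan1, Tnfrsf12a and Atf3, and it was also the library with the fewest genes detected. The part of the dissociation and sorting in these levels was not tested.

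**Figure D5:**
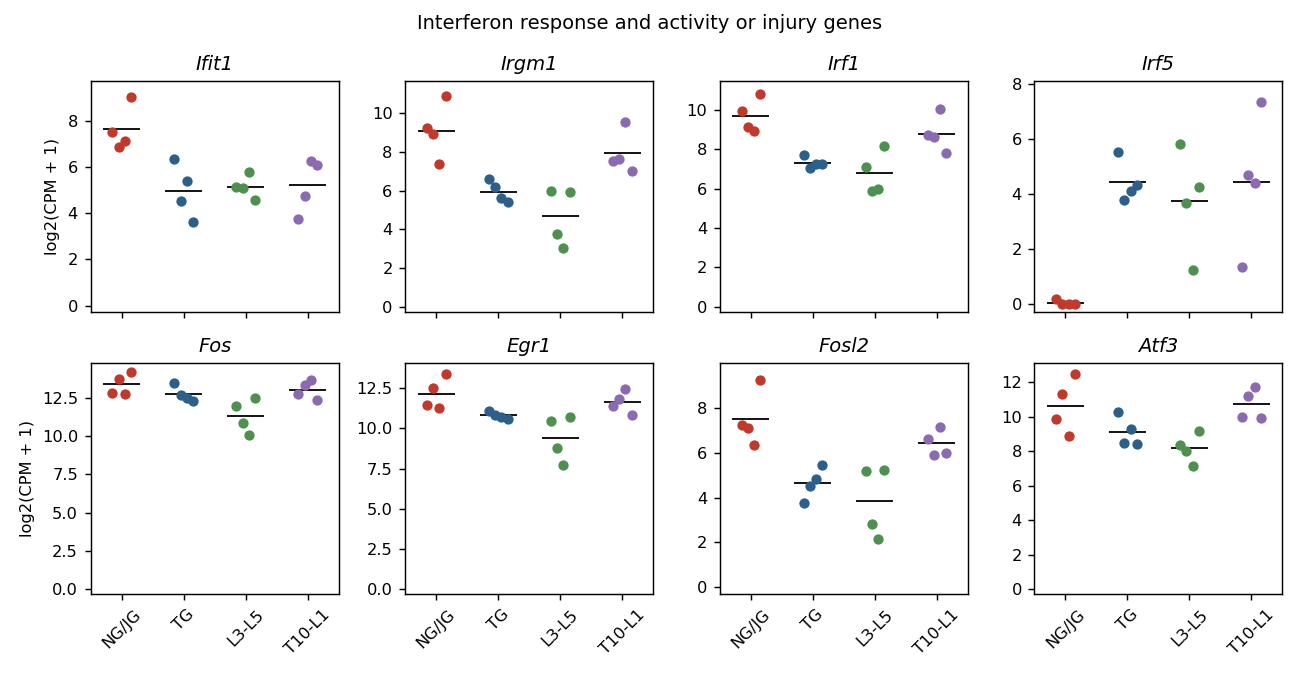
Levels of 4 interferon response genes and 4 genes of activity or injury, as log2(CPM + 1), in each library, with lines at the means. Ifit1, Irgm1, Irf1 and Fosl2 were called higher and Irf5 lower, while Fos, Egr1 and Atf3 did not pass. T10-L1 DRG lies nearer to NG/JG than TG and L3-L5 DRG do in Irgm1, Irf1, Fosl2 and Atf3.

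Markers of other cells were carried by the vagal libraries to differing degrees. The 12 markers of satellite glia summed to 35445 to 47250 CPM in NG/JG, 13830 to 34607 CPM in the DRG libraries and 40013 to 88078 CPM in TG, and the 12 tested of myelinating Schwann cells to 17423 to 42433 CPM and 9944 to 76621 CPM, with 0 calls in either list. Fibroblast markers summed to 462 to 4109 CPM in NG/JG against 596 to 13521 CPM, also with 0 calls. Of the 10 neutrophil markers tested, S100a9 was called lower (log2 fold change -7.63, adjusted p = 0.0401, kept in 6 of the 16 fits). It was at 0.105 to 0.279 CPM in NG/JG, and TG 1 and TG 4 had no read. S100a8, its partner, did not pass (adjusted p = 0.0569) except without TG 1, NG/JG 1 or L3-L5 DRG 2 (adjusted p = 0.0244 to 0.0444). The list summed to 0.629 to 44.4 CPM in NG/JG and 0.537 to 1190 CPM in the others. Sympathetic neuron markers (5 tested) had 0 calls and a median log2 fold change of 2.07, with a summed level of 71.8 to 457 CPM against 10.7 to 203 CPM. Of the pituitary (3 tested), oligodendrocyte (10), lymphocyte (3), erythroid (3) and skeletal muscle (4) markers 0 were called. Beta-s is not on the erythroid list, and the adult globin genes that are on it could not be tested.

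The remaining lists held few or no calls. Neurotrophin and GDNF family receptors (15 tested), gut and metabolic hormone receptors (18), collagens (37), cytosolic ribosomal proteins (80), nuclear-encoded respiratory chain subunits (77), clustered protocadherins (46) and axon injury genes (14) had 0 calls, and their median log2 fold changes lay between -0.77 and 0.87. Of the 20 large-fibre genes tested, 1 (Pvalb) was called lower, and the heavy, medium and light neurofilament genes of that list were not called. Catecholamine genes (11 tested) had 1 call, Eya1, and purinergic, serotonin and nicotinic receptors (23 tested) had 2, P2rx2 and Chrnb4.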

How the data were processed

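Pirt-positive neurons of 4 ganglia were sequenced in 16 libraries, 4 per ganglion. The deposited files hold raw counts per gene symbol: per the study's methods the authors aligned 50-base single reads to mm9 with TopHat2 and counted them with HTSeq (versions, annotation and strand setting are not given in the sources used here). Rows of reads not assigned to a gene were dropped. SMART-seq2 does not mark strand, so overlapping genes on opposite strands cannot be told apart.

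Genes were filtered with filterByExpr by ganglion, which left 14236, and tested in edgeR 4.0.16 (R 4.3.3) by the quasi-likelihood test with TMM factors, on a 4-ganglion design, for NG/JG minus the equally weighted mean of the 3 other ganglia, with Benjamini-Hochberg adjustment over all genes tested. All adjusted p-values are from this tool. The spread of a gene was estimated over all ganglia together. An SE is the log2 fold change, without its sign, divided by the square root of the F statistic. DESeq2 1.42.0, other factors, filters, weights, a replicate block and leaving out libraries were alternatives. The fit was tested on simulated data. The genes named by size are the up to 12 per direction with the largest log2 fold change among called genes without overlap and with at least 5 CPM on the higher side, beside called members of 37 lists, up to 4 uncalled members of a list in its order, and genes the study names for NG/JG. The members and lists were chosen with earlier results of these data known. A gene that meets the rule is not reported here. The files gave 4735624 to 13333318 reads on genes per library. Floors cover counting error only. Positions are from the NCBIM37 annotation, with exact matches for promoters taken from RefSeq.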

Additional observations from a re-analysis of the deposited data

Results flagged for a closer look

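Among 263 sets of 4 libraries, each a gene described above in 1 ganglion, 18 held a library that stood apart from the other 3 by Dixon's test on log2(CPM + 0.5), which chance gives in about 1 in 20. In NG/JG these were Hoxa7 in NG/JG 1 (2.65 CPM, the others at 0 to 0.129 CPM) and Hoxb4 in NG/JG 4 (0 CPM, the others at 10.2 to 13.9 CPM). In TG, TG 1 was the lowest library in Onecut2 (1.34 CPM), Ttc23 (0.134 CPM), Ccdc68 (0.269 CPM) and Agtr1a (0.134 CPM), and TG 4 the highest in Glp1r (3.64 CPM).

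In L3-L5 DRG, library 4 was the lowest in Grwd1 (1.88 CPM), Prdm12 (4.32 CPM) and Runx1 (4.88 CPM) and the highest in Ddc (0.939 CPM), Chrna3 (4.13 CPM) and Glp1r (1.88 CPM), and library 1 was the highest in Beta-s (103 CPM). Library 4 had the fewest reads and the most genes detected of the 16 libraries. In T10-L1 DRG, library 1 was the highest in Hpcal4 (0.845 CPM) and Ddc (0.845 CPM), library 2 in Tbx3 (31.1 CPM) and library 3 in Tnfrsf12a (189 CPM).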

How the results depend on the processing

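The 35 higher and 83 lower genes were all called by DESeq2 as well, which called 297 higher and 1092 lower (60 and 250 past 5 RPKM and 5-fold, 35 and 153 without overlap, 15 and 462 against each ganglion). Without a filter on low counts 54 were higher (33 past both limits, 2 against each ganglion). With the 12 other libraries as a single group 8 were higher and 127 lower (7 higher past both limits, 4 without overlap), and with more weight on TG 55 were higher. With a mean of 5 CPM, before TMM scaling, in place of RPKM 82 lower genes passed both limits. Without NG/JG 4 and TG 1 together, chosen after seeing the data, 116 were higher and 215 lower (32 and 79 past both limits, 44 and 184 without overlap, 3 and 106 against each ganglion). RLE factors and robust dispersion left each of these counts within 1.5 times.

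Leaving out 1 library gave 19 to 139 higher and 39 to 436 lower genes, 15 to 45 and 29 to 246 past both limits, 5 to 33 and 35 to 294 without overlap, and 0 to 4 and 12 to 241 against each ganglion. With the replicate block 9 were higher and 28 lower (7 and 23 past both limits, 4 and 24 without overlap, 0 and 11 against each ganglion). NG/JG libraries and the same-numbered libraries of the other ganglia correlated at -0.03 to 0.17, over 0.1 in 2 of 12 pairs. NG/JG libraries correlated best with their own number in 6 of 12 cases. These included every NG/JG library against L3-L5 DRG (0.17, 0.06, 0.13 and 0.05 for NG/JG 1 to 4). The labels do not say that the numbers pair the libraries, so the main fit took no pairing. Whether same-numbered libraries shared animals or a batch is not known.

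The direction turned only in genes near 0. Pirt, at -0.01, was at 0.0496 with DESeq2 and with RLE factors, 0.0785 without a filter, 0.1049 with more weight on TG, 0.22 without NG/JG 4 and TG 1, and -1.22 to 0.33 with 1 library left out. Tubb3, at -0.07, was at 0.0096 without a filter, 0.0719 with more weight on TG and -0.37 to 0.22 with 1 library left out. Gpr65, at 0.05, was at -1.56 with the replicate block, -0.0534 with the others as a single group, -2.54 without NG/JG 4 and TG 1, and -2.63 to 1.00 with 1 library left out. The number of genes detected differed by -3130 at full depth and by -3405 at 5 or more reads.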
